A study of Arabidopsis thaliana with 18 samples.

Results

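The response that 5 bisphenols had in common was read from 18 root libraries of wild-type (WT) Arabidopsis thaliana, of which 15 came from roots grown with a bisphenol and 3 from controls. Bisphenol A (BPA), bisphenol B (BPB), bisphenol E (BPE), bisphenol F (BPF) and bisphenol S (BPS) gave 3 libraries each, and control roots were grown with dimethyl sulfoxide (DMSO, below 0.01% by volume), the solvent. All plants carried the same genotype and stood on agar with sucrose for 14 days under 16 h of light and 8 h of dark, so exposure ran from sowing to harvest. Doses of 1, 3 and 10 mg/L were named for the plates, but which dose a library received is not in the labels, and the compounds were therefore not ranked by strength. Transcript levels were FPKM, fragment numbers scaled by gene length and by the mapped fragments of the library. The filter on low values, a mean of 1 FPKM or more across all 18, kept 19484 of 33602 loci for testing. The change of a gene is the mean of the 5 compound means minus the control mean on log2(FPKM + 1), which understates the change of genes at low levels. Genes were taken first where all 15 bisphenol libraries lay above, or all 15 below, the 3 controls, and each was then examined for whether its change passed limma's test at a Benjamini-Hochberg adjusted p below 0.05, here termed called. The labels do not say whether libraries of a group stem from different plates or plants, so the spread behind each p-value is that between these libraries and may be technical.

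Bisphenols are small phenolic chemicals of plastics and resins. Plants take up such phenols through the root and are known to attach sugars to them, often followed by a malonyl group, before storage in the vacuole. Root transcripts are also known to respond within minutes to touch and wounding, and over hours to days to oxygen supply, metal supply and hormones. Aquaporins, which pass water and small solutes, fermentation enzymes, which work when oxygen is short, and root triterpene enzymes, which make specialised metabolites, are typical root gene products.

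In 1014 genes, 5.2% of those tested, every bisphenol library lay on one side of the controls. There were 620 genes with all 15 libraries above (3.18%) and 394 with all 15 below (2.02%). The metal transporter gene ZIP2 showed the largest rise among them, and the jasmonate-inactivating enzyme gene JOX4 and the aquaporin gene NIP2;1 the largest falls. Falls also took in single genes of fermentation (ADH1), raffinose synthesis (GolS3) and phosphate starvation (RNS1, a ribonuclease). The 3 genes of the marneral triterpene cluster fell as well. Rises took in photosystem genes, plasma membrane aquaporins, transcription factor genes that react fast to touch, and cytochrome P450 genes of the CYP71B group.

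Promoters of 4 of these genes, each among the 10 largest rises or falls without overlap, are shown as examples. JOX4, NIP2;1, ABR1 and RNS1 fell more and are not shown. The 3 falls shown all hold a G-box, held by 10.2% of promoters of genes below the controls, so they do not stand for the falls. Each is the 250 bases before the annotated gene start, 5′ to 3′ on the gene's strand, from RefSeq TAIR10.1. ADH1 lies on the plus strand with its window at chr1:28975005-28975254, GolS3 on the plus strand at chr1:3019389-3019638, PRN on the plus strand at chr3:21893562-21893811, and ZIP2 on the minus strand at chr5:23992909-23993158. Capitals mark the G-box CACGTG in the first 3 and the W-box core TTGAC, here on the opposite strand as GTCAA, in ZIP2.
ADH1: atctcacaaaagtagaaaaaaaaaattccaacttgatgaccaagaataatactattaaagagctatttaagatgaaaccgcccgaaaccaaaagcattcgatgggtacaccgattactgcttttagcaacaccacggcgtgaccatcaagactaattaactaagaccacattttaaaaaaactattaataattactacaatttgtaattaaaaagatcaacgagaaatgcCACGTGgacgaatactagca
GolS3: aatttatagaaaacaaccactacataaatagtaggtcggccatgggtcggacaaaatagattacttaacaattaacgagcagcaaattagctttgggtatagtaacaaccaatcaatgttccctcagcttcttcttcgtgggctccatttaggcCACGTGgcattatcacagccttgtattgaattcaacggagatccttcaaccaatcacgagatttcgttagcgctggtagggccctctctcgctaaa
PRN: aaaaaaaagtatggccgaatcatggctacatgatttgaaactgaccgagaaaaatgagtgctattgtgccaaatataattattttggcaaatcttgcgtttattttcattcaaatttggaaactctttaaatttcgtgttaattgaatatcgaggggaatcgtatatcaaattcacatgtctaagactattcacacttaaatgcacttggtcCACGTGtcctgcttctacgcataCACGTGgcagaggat
ZIP2: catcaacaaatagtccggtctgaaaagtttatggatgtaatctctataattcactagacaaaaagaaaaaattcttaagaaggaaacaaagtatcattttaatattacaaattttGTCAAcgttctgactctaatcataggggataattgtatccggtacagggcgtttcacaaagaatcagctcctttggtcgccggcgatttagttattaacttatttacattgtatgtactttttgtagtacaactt

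Searched on both strands, CACGTG stood in 40 of the 394 promoters of genes below the controls (10.2%), in 44 of 618 promoters of genes above (7.12%), and in 7.28% of the 19387 promoters read. Its inner letters ACGTG, the core of the abscisic acid response element, overlap every G-box and stood in 28.9%, 22% and 24% of these promoters. The W-box core TTGAC, which WRKY transcription factors are known to bind, stood in 42.6% of the promoters of genes below, 50.0% above and 45.5% of all. The dehydration response element core CCGAC was held by 15% below, 8.25% above and 13% of all, and the I-box GATAAG, known from light-regulated genes, by 9.39%, 15.7% and 12%. The as-1 core TGACG, which can overlap TTGAC, was held by 19.3%, 21.8% and 19.2%. For the heat shock element core GAANNTTC the shares were 11.2%, 12.6% and 9.32%, and for the PHR1 binding site GNATATNC 4.31%, 7.77% and 5.5%. The evening element AAAATATCT gave 4.06%, 3.07% and 2.4%, and the CAMTA site ACGCGT 2.54%, 1.29% and 1.85%. These shares are descriptions of letters in a window and were not tested.

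By limma, 4029 genes were called in the contrast of the 5 compounds with the control (20.7%), of which 2679 were higher (13.7%) and 1350 lower (6.93%). The direction of these calls moved with the scaling: 66.49% were higher as deposited, 47.08% after libraries were set to a common median and 50.85% with quantile normalization. The 3 controls carried much of the count, which was 1525 without control replicate 1, 3014 without replicate 2 and 1744 without replicate 3. Of the 1014 genes without overlap, 979 were called, 607 higher and 372 lower, a count that their choice from the same values largely fixes. Under all 3 scalings at once, 349 genes above and 346 below remained called and without overlap. When any 1 control was left out, 390 above and 248 below were still called. Overlap could not arise there, since these genes already cleared all 3 controls. With the 15 libraries as 1 group, so that differences among compounds enter the error, 604 genes were called in all, 296 of those above and 164 of those below among them. The 35 genes without overlap that were not called had adjusted p-values between 0.05 and 0.181 by limma.

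Recovered from the steps between low values, the fragment total of a library ran from 15.9 M to 22.1 M, with a median of 18.35 M. No molecular identifiers mark single molecules, so these totals bear on counting error alone. The 95% interval of a log2 change had a median half-width of 0.31. As a check of the tissue, the summed level of 10 root identity genes ran from 3056 to 3507 FPKM in the controls and from 2480 to 4228 in the bisphenol libraries. Of the 9 tested, the regulator gene GL2 rose by 0.74 ± 0.18 and WOX5, the quiescent centre regulator gene, fell by 1.36 ± 0.31 (SE; limma adjusted p = 0.0106 and 0.00773), and both calls were lost without control replicate 1 and with the 15 libraries as 1 group. In whole roots, fewer cells of a type and less RNA per cell cannot be told apart.

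ZIP2 (AT5G59520), a plasma membrane transporter of the ZRT/IRT-like family that carries zinc and manganese, stood at 1.03, 1.05 and 1.14 FPKM in the controls. Across the bisphenol libraries it ran from 4.94 through a median of 16.0 to 47.0 FPKM. Every bisphenol library thus lay well above every control, with the 3 BPF libraries highest at 25.6, 47.0 and 44.0 FPKM. The log2 change was 3.00 ± 0.27 (SE; 95% interval 2.44 to 3.57; limma adjusted p = 3.65e-05), with 1.99 in BPA, 2.85 in BPB, 2.99 in BPE, 4.22 in BPF and 2.96 in BPS. ZIP2 kept its call under every setting tried. Among the 7 ZIP genes tested, a family taken up after the values were seen, 4 rose and 2 fell, and the others moved far less, between -0.80 for ZIP5 and 0.68 for ZIP11. The 2 falls were 0 without control replicate 1 or 2, without BPA and with the 15 libraries as 1 group. In that last setting ZIP2 was the 1 rise left. In the list of superoxide and copper genes, 4 of 13 tested members rose, ZIP2 among them, and 1 fell, with a median log2 change of 0.11. The shares over all genes tested were 13.7% and 6.93%. FSD1, an iron superoxide dismutase known to be made when copper is short, was at 4.19, 6.33 and 7.80 FPKM in the controls and between 8.20 and 168 FPKM (median 21.0) with bisphenols. Its change of 2.24 ± 0.33 (limma adjusted p = 0.000693) ran from 0.92 in BPB to 4.38 in BPF, and its groups overlapped under both other scalings. CSD1, the copper/zinc enzyme of the cytosol, fell by 0.65 ± 0.14 (adjusted p = 0.00607), with overlap of the groups. The copper transporter gene COPT2 and the ferric and cupric reductase gene FRO4 rose by 0.94 ± 0.29 and 0.97 ± 0.29, with overlap. The count of 4 rises was 2 with median scaling, without any 1 of the 3 controls and without BPF, and 1 with the 15 libraries as 1 group.

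**Figure D1:**
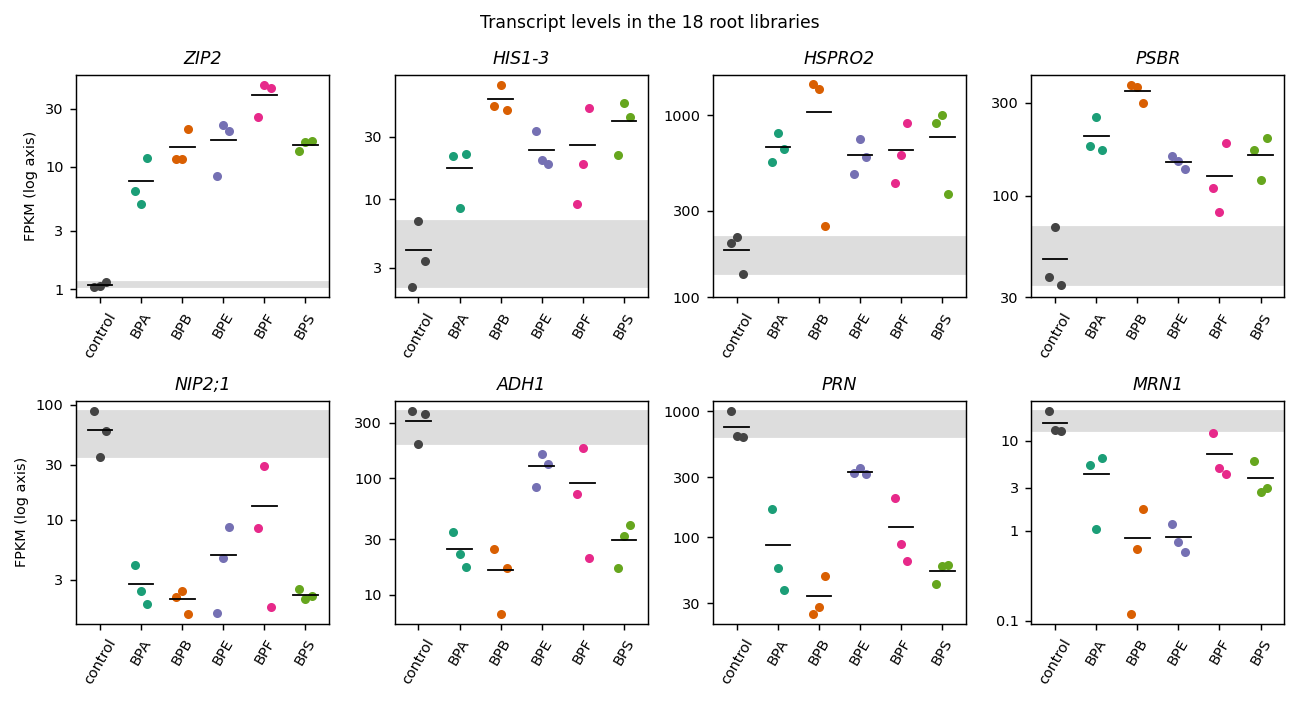
FPKM on log axes of 8 genes in each library, by group; points are libraries, bars are means of 3 and the grey band is the range of the controls. For all 8 genes the 15 bisphenol points lie outside the band, above it for ZIP2, HIS1-3, HSPRO2 and PSBR and below it for NIP2;1, ADH1, PRN and MRN1.

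The other large rises were of genes with varied roles. ORA47, a transcription factor gene known to activate jasmonate synthesis, was at 4.37 to 5.03 FPKM in the controls and at 5.19 to 327 FPKM (median 37.4) with bisphenols, a change of 2.76 ± 0.63 (limma adjusted p = 0.00766). It was 4.56 in BPB and 4.70 in BPS but 0.47 in BPE, and the libraries overlapped under median and quantile scaling. NUDT21, a nudix hydrolase gene, went from 21.9 to 27.7 FPKM in the controls to between 43.0 and 844 FPKM, a change of 2.67 ± 0.42. PUP7, a purine permease gene, stood at 0.963 to 0.983 FPKM in the controls and at 1.57 to 77.4 FPKM (median 11.4) with bisphenols. HIS1-3, the drought-inducible linker histone gene, was at 2.12, 6.85 and 3.35 FPKM in the controls and between 8.55 and 74.7 FPKM (median 22.1) with bisphenols. Its change of 2.60 ± 0.41 (limma adjusted p = 0.000924) ran from 1.85 in BPA to 3.61 in BPB, and the F test among compounds did not pass (adjusted p = 0.0617). AT3G29000, which encodes an EF-hand calcium-binding protein, changed by 2.60 ± 0.45, and AT1G07135, annotated as a glycine-rich protein, by 2.53 ± 0.47, with overlap under both other scalings. Also among the 10 largest were AT5G28610 (2.73 ± 0.60), AT1G05575 (2.72 ± 0.52) and AT1G50750 (2.64 ± 0.72), whose roles are not stated here. Against the control alone, every gene of this paragraph was called in BPB and in BPS and none in BPF. Only HIS1-3 was called in BPE, where NUDT21 changed by 1.02, PUP7 by 0.73, AT1G50750 by 0.66 and AT1G07135 by 0.30. With the 15 libraries as 1 group, ORA47, PUP7, NUDT21, AT1G50750, AT3G29000 and AT1G07135 were no longer called, and AT1G50750 also lost its call without control replicate 1 or 3.

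Among the falls, NIP2;1 (AT2G34390), an aquaporin gene known to be induced when oxygen is short, stood at 88.0, 34.9 and 59.1 FPKM in the controls. With bisphenols the lowest library had 1.53 FPKM, the median was 2.42 and the highest was 29.6, in BPF replicate 2. No library overlapped the controls, and all but BPF replicate 2 lay at or below 8.56 FPKM. The change was -3.70 ± 0.50 (SE; limma adjusted p = 0.000501), at -3.97, -4.26, -3.48, -2.64 and -4.16 in BPA, BPB, BPE, BPF and BPS. The F test among compounds gave an adjusted p of 0.18, and the call held under every setting tried. Against the control alone, NIP2;1 was called in BPA, BPB, BPE and BPS and not in BPF (limma adjusted p = 0.0578). The locus is overlapped on the other strand by AT2G34380, and whether fragments were counted by strand is not given in the sources used here. Among others, the same holds for ORA47, ABR1, ADH1, WRKY29, AT1G13340, AT1G66930, NRT1.5, PSBR, CSD1, IREG2 and UGT89C1, each with another locus. ADH1 (AT1G77120), the alcohol dehydrogenase of fermentation, read 380, 199 and 360 FPKM in the controls and from 6.90 to 182 FPKM (median 32.1) with bisphenols. It fell by 2.94 ± 0.48 (adjusted p = 0.00109), least in BPE at -1.29 and most in BPB at -4.28. Against the control alone, ADH1 was not called in BPE or BPF.

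Of 15 hypoxia genes, 10 fell, beside 6.93% of all genes, and 0 rose, with a median log2 change of -1.18 against 0.06 over all genes tested. PDC1, the pyruvate decarboxylase gene that feeds ADH1, fell by 2.94 ± 0.53, and the low-oxygen transcription factor genes LBD41 and HRA1 by 2.08 ± 0.39 and 2.24 ± 0.47. PCO1 and PCO2, the oxygen-sensing plant cysteine oxidase genes, fell by 1.5 ± 0.34 and 1.44 ± 0.34. Of these 15, only ADH1 was below the controls in every library, beside 2.02% of all genes. The summed level of the list was 1241, 781.1 and 1287 FPKM in the controls, and 143 to 592.5 FPKM in 14 bisphenol libraries. BPF replicate 2 was the exception at 1460 FPKM, above the controls. The count of 10 falls was 4 without control replicate 1 and 2 with the 15 libraries as 1 group.

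JOX4 (AT2G38240), a jasmonate-induced oxygenase that hydroxylates jasmonic acid to an inactive form, had the largest fall by mean. Its controls read 463, 347 and 337 FPKM, and the bisphenol libraries ran from 0.0413 through a median of 43.2 to 304 FPKM. The 3 BPB libraries and BPS replicates 2 and 3 held at most 1.32 FPKM, while the BPE libraries held 198 to 304. The change of -3.92 ± 0.66 (limma adjusted p = 0.00137) was the mean of -2.33, -7.95, -0.64, -1.82 and -6.89 in BPA, BPB, BPE, BPF and BPS, and was not called with the 15 libraries as 1 group (adjusted p = 0.203). Of 24 jasmonate genes, 5 fell and 0 rose, beside 6.93% and 13.7% of all genes. JOX2, JOX3, JAR1, which conjugates jasmonate to isoleucine, and AOC2, a synthesis enzyme gene, were among the falls. The list median was 0.04 as deposited and -0.05 with median scaling, and none of the 5 falls held with the libraries as 1 group. ABR1, an ERF transcription factor gene of the abscisic acid response, followed a like order, from 392.2 to 477 FPKM in the controls to 1.29 to 332 FPKM, with -6.77 in BPB, -6.33 in BPS and -0.67 in BPE. Its mean change of -3.35 ± 0.56 also lost its call with the libraries as 1 group. Against the control alone, JOX4 and ABR1 were called in BPB and BPS only.

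RNS1, a secreted ribonuclease gene known from phosphate starvation, fell from 222, 120 and 152 FPKM in the controls to between 0.676 and 87.4 FPKM (median 19.7), a change of -3.24 ± 0.46 (limma adjusted p = 0.000603). The rest of the phosphate list did not follow it: of 24 genes, 1 fell and 1 rose, the latter PHO1, which loads phosphate into the xylem (1.16 ± 0.17), beside 20.7% of all genes called. Both of these calls were lost with the 15 libraries as 1 group (adjusted p = 0.0503 for RNS1 and 0.0851 for PHO1). PRN, the pirin gene, whose product binds the G protein alpha subunit, fell from 1007, 639 and 621 FPKM to between 24.8 and 358 FPKM (median 60.5). Its change was -3.10 ± 0.36 (adjusted p = 0.000272), and the 3 BPE libraries were the highest, at 318 to 358 FPKM. PMAT2, which adds malonyl groups to glucosides of phenols, fell from 82.5 to 126 FPKM in the controls to 0.588 to 45.2 FPKM, a change of -2.92 ± 0.40 (adjusted p = 0.000532). WRKY29, a transcription factor gene of immune signalling, fell by 2.67 ± 0.44. With the libraries as 1 group PMAT2, WRKY29 and RHS2 were not called (adjusted p = 0.0797, 0.0719 and 0.0706). Against the control alone, RNS1 and WRKY29 were not called in BPE or BPF, PRN and RHS2 not in BPE, and PMAT2 not in BPF. RHS2, a gene of root hair cells, dropped from 318 to 478 FPKM in the controls to 9.15 to 224 FPKM, by 2.62 ± 0.30. Of 21 root hair genes 4 fell and 0 rose, beside 6.93% and 13.7% of all genes. RSL4, RHD6 and RHS18 were the other falls. The list median was -0.64, and the count was 15 without BPB replicate 3, 1 without control replicate 1, 2 without control replicate 3 and 0 with the libraries as 1 group.

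GolS3, a galactinol synthase gene that opens raffinose synthesis and is known to be cold-induced, stood at 58.7, 44.5 and 37.5 FPKM in the controls. In the bisphenol libraries it lay between 1.00 and 15.05 FPKM with a median of 5.24, so the highest of them was still under every control. The change was -2.91 ± 0.41 (limma adjusted p = 0.000587). Against the control alone, GolS3 was called in every compound. Of the galactinol synthase family, taken up after the values were seen, 4 of 8 passed the filter on low values, and GolS3 and GolS4 (-2.59 ± 0.45) were the ones that fell, of which GolS4 lost its call with the libraries as 1 group. In the list of dehydration and abscisic acid genes, 6 of 15 fell and 1 rose, beside 6.93% and 13.7% of all genes. The list median was -0.17. RD29A, KIN1, KIN2, COR47, ERD10 and LTI30, genes of cold and dehydration proteins, were those that fell, by 3.30 ± 0.42 for RD29A and 2.66 ± 0.26 for KIN1. None of these 6 was free of overlap, since libraries of BPE or others reached control levels: RD29A ran from 3.87 to 830 FPKM against 662 to 1004 in the controls. The 6 falls were 0 with the libraries as 1 group. NCED3, the enzyme gene that limits abscisic acid synthesis, was the rise at 0.98 ± 0.33 and lost its call under both other scalings.

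**Figure D2:**
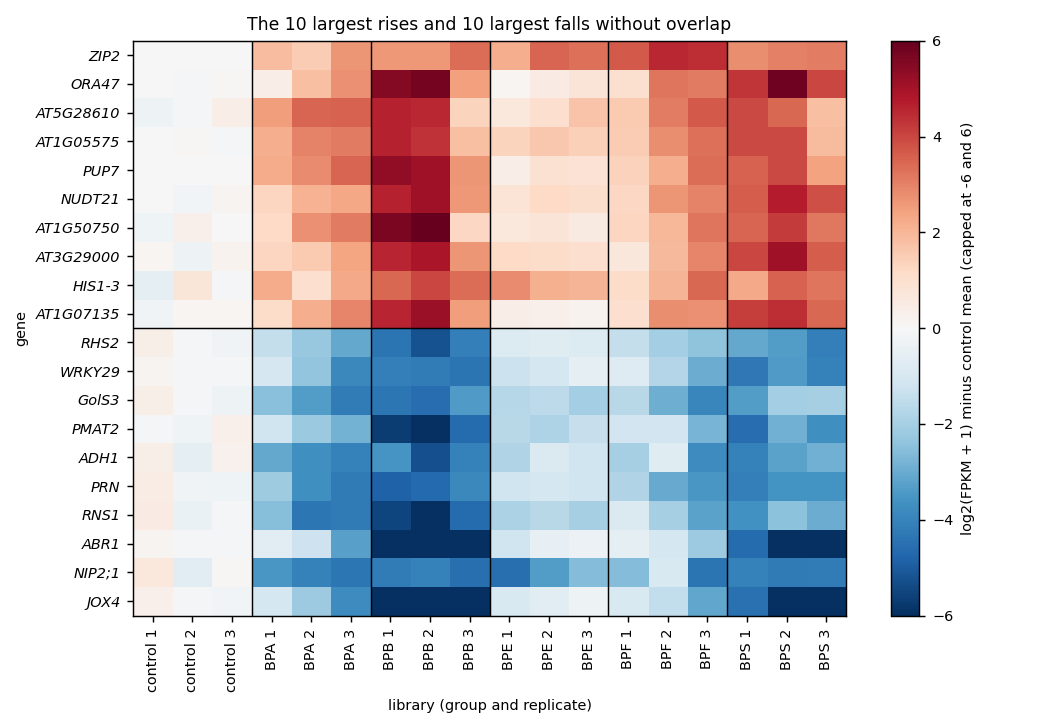
Log2(FPKM + 1) minus the control mean, in colour, for 10 rises and 10 falls, the largest among genes without overlap (rows) in 18 libraries (columns). ORA47, ABR1 and JOX4 are deep in BPB and BPS and pale in BPE, whereas ZIP2 and NIP2;1 are coloured in every compound.

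The marneral cluster on chromosome 5, 3 neighbouring genes of a root triterpene pathway, was taken up after its values were seen. MRN1, the marneral synthase gene, stood at 21.5, 13.1 and 12.8 FPKM in the controls and between 0.121 and 12.3 FPKM (median 2.69) with bisphenols. The highest bisphenol library, BPF replicate 1, lay just under the lowest control. Its change was -2.24 ± 0.37 (limma adjusted p = 0.00112). The cytochrome P450 genes beside it fell too, CYP705A12 by 2.09 ± 0.32 and CYP71A16 by 1.33 ± 0.20, both below the controls in all 15 libraries. Summed over the 3 genes, the controls held 109.6 to 140.7 FPKM and the bisphenol libraries 12.22 to 79.74. All 3 kept their calls under every setting tried. Among all genes tested, 6.93% were called lower and 2.02% lay below the controls in all 15 libraries. In the related thalianol cluster, 4 of 5 genes fell, of which only the acyltransferase gene AT5G47980 (-2.39 ± 0.32) was below the controls throughout. Without control replicate 1 there was 1 such fall, without control replicate 3 there were 2, and with the libraries as 1 group 1.

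Uniform rises and falls were sought among genes without overlap that changed by at least 1 on the log2 scale, by the smallest range over the 5 compounds. AT2G27830, whose product is uncharacterized, was the most precise, at 16.8, 21.4 and 21.96 FPKM in the controls and 37.3 to 63.4 FPKM (median 51.7) with bisphenols. Its change was 1.32 ± 0.13 (limma adjusted p = 0.000132), from 1.08 in BPS to 1.51 in BPB. HSPRO2, a gene of basal resistance, was at 198, 216 and 135 FPKM in the controls and 248 to 1486 FPKM (median 651) with bisphenols, a change of 1.89 ± 0.43. BPB replicate 3 was the lowest of the bisphenol libraries and the other BPB libraries the highest. NIMIN-3, whose product binds the salicylic acid receptor NPR1, rose by 1.12 ± 0.17. IGMT4, a methyltransferase gene of indole glucosinolates, rose by 1.68 ± 0.42, AT1G13340 by 1.34 ± 0.29. IGMT4, which has close copies that can share fragments, overlapped under quantile normalization and lost its call without control replicate 1 or 3, and HSPRO2 lost its call without replicate 3. Against the control alone, AT2G27830 and NIMIN-3 were called in every compound. HSPRO2 and IGMT4 were not called in BPE or BPF, and AT1G13340 not in BPF.

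ARR3, a type-A response regulator gene that damps cytokinin signalling, was among the 5 most uniform falls. It stood at 35.4, 31.5 and 36.3 FPKM in the controls and between 9.59 and 23.3 FPKM (median 14.4) with bisphenols. The change was -1.18 ± 0.23 (limma adjusted p = 0.00272), from -1.35 in BPE to -0.83 in BPS. Of 9 type-A regulators tested, 3 fell and 0 rose, beside 6.93% and 13.7% of all genes. The falls were ARR3, ARR15 (-1.45 ± 0.38) and ARR17 (-1.28 ± 0.28), and the list median was -0.54. The count of falls was 2 without any 1 of the controls and with the 15 libraries as 1 group. ARR3 and ARR17 were below the controls in all 15 libraries, beside 2.02% of all genes. LBO1, an oxidoreductase gene of strigolactone synthesis, was at 42.6, 36.5 and 67.8 FPKM in the controls and 12.6 to 32.7 FPKM with bisphenols, a fall of 1.26 ± 0.29 that was lost without control replicate 3. AT1G54950, of unknown function, fell by 1.03 ± 0.24, and the protein kinase superfamily genes AT1G33260 and AT1G66930 by 1.01 ± 0.24 and 1.16 ± 0.20. AT1G33260 lost its call without control replicate 1 or 3. Against the control alone, none of these 5 uniform falls was called in BPF. Not called either were ARR3, AT1G33260 and AT1G54950 in BPS, AT1G54950 and LBO1 in BPA, and AT1G33260 in BPE.

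The 5 compounds did not move the genes without overlap by equal amounts. Above the controls, the median log2 change was 0.75 in BPA, 1.15 in BPB, 0.60 in BPE, 0.59 in BPF and 0.80 in BPS. Below them it was -0.77, -1.22, -0.56, -0.64 and -0.91. BPB gave the largest change in 446 of the 620 genes above and in 266 of the 394 below. The same count was not made over all genes tested, of which BPB also called the most (25.5% higher and 11.1% lower). The F test among the 5 compounds, which leaves the controls out of its contrasts, was passed by 331 genes above (53.4%) and 205 below (52.0%), against 9257 of all genes tested (47.5%). The median range over the compounds was 0.70 above and 0.78 below, beside 0.62 over all genes. The range stayed under 1 in 426 genes above and 247 below, a count not made over all genes. Against the control alone, BPA called 394 of the 620 genes higher, BPB 592, BPE 309, BPF 78 and BPS 481. Of all genes tested, the same comparisons called 6.57%, 25.5%, 9.08%, 0.708% and 12.3% higher. Of the 394 below, BPA called 242 lower, BPB 366, BPE 160, BPF 56 and BPS 281. Their shares of all genes tested called lower were 3.83%, 11.1%, 5.2%, 0.677% and 8.71%. These comparisons share the 3 controls that chose the genes, and 44 genes above and 25 below were called in each of them.

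**Figure D3:**
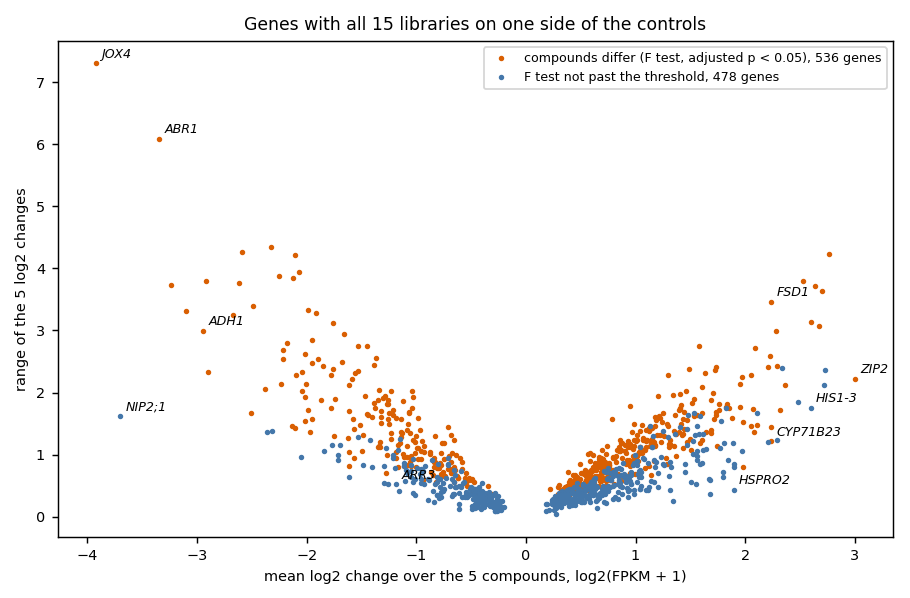
Mean log2 change over the 5 compounds (x axis) against the range of the 5 compound changes (y axis) for the 1014 genes without overlap, one point per gene. JOX4 and ABR1 combine large falls with ranges above 6, while NIP2;1 and HSPRO2 lie low for their size; 536 genes passed the F test among compounds.

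Photosynthetic genes rose together. Of 35 shoot markers, 31 were tested, and 28 of these rose and 0 fell, with a median log2 change of 1.47 and 9 genes without overlap. Over all genes tested, 13.7% rose, 6.93% fell and 3.18% lay above the controls in all 15 libraries. PSBR, a photosystem II subunit gene, was at 38.0, 69.1 and 34.9 FPKM in the controls and 82.3 to 372 FPKM (median 171) with bisphenols, a change of 1.98 ± 0.23 (limma adjusted p = 0.000241). PSBO2, of the oxygen-evolving complex, rose by 2.29 ± 0.30, and the light-harvesting genes LHCB1.3 and LHCB5 by 2.36 ± 0.47 and 2.05 ± 0.30. The summed level of the 35 markers was 223.2, 419.3 and 181 FPKM in the controls and 375.1 to 1861 FPKM (median 902.4) with bisphenols. BPF replicate 2, the lowest, stood under control replicate 2, and the 3 BPB libraries were the highest at 1627, 1667 and 1861 FPKM. Of the markers, 1 was at 0 in all 3 controls. The part of shoot markers in the other changes was not tested. The count was 21 with the libraries as 1 group and 20 to 30 when 1 library was left out.

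Transcription factor and signalling genes that react fast to touch and stress gave 14 rises and 0 falls among 22, with a median of 1.76. The shares of all genes tested were 13.7% and 6.93%, and 3.18% lay above the controls in all 15 libraries. CBF2, a cold-response transcription factor gene, was at 1.41, 2.07 and 1.00 FPKM in the controls and 2.097 to 87.3 FPKM (median 7.84) with bisphenols, a change of 2.29 ± 0.47 (limma adjusted p = 0.00433). WRKY33, ERF6, ZAT12 and CZF1 were the other members above the controls in all 15 libraries, at 2.11 ± 0.59, 2.06 ± 0.45, 1.68 ± 0.41 and 1.13 ± 0.28. Summed over the list, the controls held 759.2 to 1061 FPKM and the bisphenol libraries 962 to 7255. The spread was wide within compounds as well: BPB replicates 1 and 2 stood at 7165 and 7255 FPKM and replicate 3 at 1439, and the BPE libraries at 962 to 1175. CBF2 overlapped under quantile normalization. The 14 rises were 5 without control replicate 1, 8 without control replicate 3 and 1 with the libraries as 1 group.

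**Figure D4:**
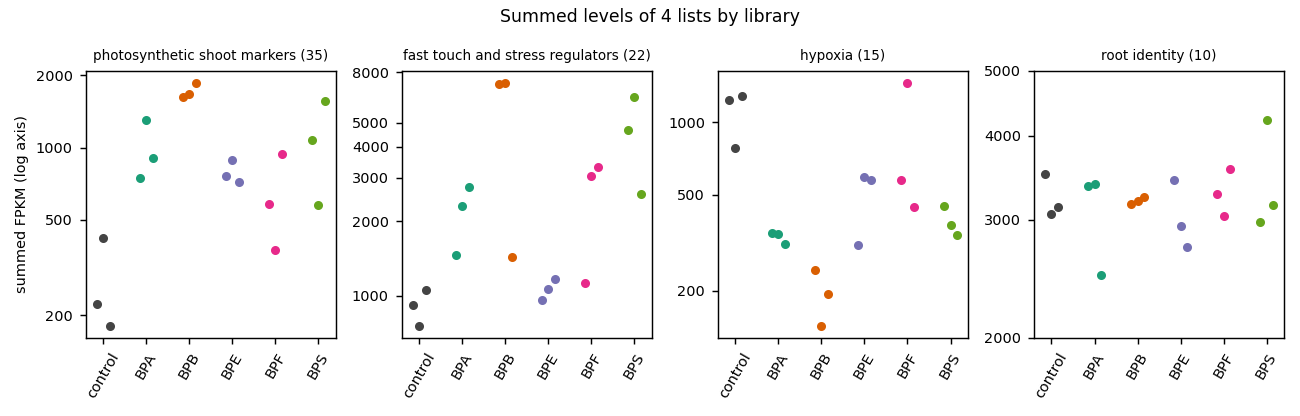
Summed FPKM (log axis) of the members of 4 gene lists in each library, by group, with the number of listed genes in brackets. Photosynthetic and fast touch genes lie mostly above the controls, hypoxia genes below them apart from BPF replicate 2 at 1460 FPKM, and root identity genes spread around them.

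Of 26 aquaporin genes, 11 rose and 2 fell, beside 13.7% and 6.93% of all genes, with a median of 0.23, and NIP2;1 was one of the falls. PIP2;1, a main water channel of roots, was at 165, 192 and 138 FPKM in the controls and 207 to 702 FPKM (median 408) with bisphenols, a change of 1.3 ± 0.16 (limma adjusted p = 0.000307). PIP1;1 (1.16 ± 0.15) and PIP2;2 (1.17 ± 0.16) were also above the controls in every library, while PIP2;5 fell by 1.70 ± 0.31 with overlap, at -0.07 in BPE and -2.69 in BPB. Over all genes tested, 3.18% lay above the controls in all 15 libraries and 2.02% below. Close copies among these genes can share fragments. The 11 rises were 6 without control replicate 1, 6 without replicate 3 and 3 with the libraries as 1 group.

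Cytochrome P450 genes of the CYP71B group, taken up after the values were seen, gave 10 rises and 1 fall among 14 tested of 36. Among all genes tested 13.7% rose, 6.93% fell and 3.18% lay above the controls in all 15 libraries. CYP71B23 ran from 2.05 to 4.45 FPKM in the controls and from 10.4 to 29.998 FPKM with bisphenols, a change of 2.24 ± 0.13 (limma adjusted p = 8.18e-07). CYP71B2 (1.71 ± 0.21), CYP71B26 (1.47 ± 0.23), CYP71B28 (1.03 ± 0.16) and CYP71B6 (0.82 ± 0.14) were also above the controls in all 15 libraries, and CYP71B7 was the fall (-0.58 ± 0.19). Many of these genes lie in tandem and are alike in sequence, so their fragments may have been split between copies. The 10 rises were 6 without control replicate 1 or replicate 3 and 4 with the libraries as 1 group. The chemical-inducible list, of genes known to answer foreign compounds, moved both ways. In it 5 of 23 rose and 4 fell, beside 13.7% and 6.93% of all genes. Its median was 0.21 and no gene was free of overlap, beside 5.2% of all genes. CYP81D11 rose by 1.08 ± 0.19 and the sulfotransferase gene SOT12 by 0.43 ± 0.10, while the glutathione S-transferase genes GSTU4 and GSTU25 fell by 1.57 ± 0.35 and 0.73 ± 0.16. With median scaling 3 of this list rose, with the libraries as 1 group 0 rose and 0 fell, and leaving out 1 control gave 1 or 2 rises, and 1 fall without control replicate 1 or 3.

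Phenolic pathways held falls and no rises, where 6.93% of all genes tested were called lower and 13.7% higher. Of 19 phenylpropanoid and lignin genes 6 fell, with a median of -0.52, and CAD5, a monolignol alcohol dehydrogenase gene, fell most, by 1.54 ± 0.26, with overlap (0.09 in BPE, -2.75 in BPB). C4H, the cinnamate hydroxylase gene, fell by 0.81 ± 0.18. C3'H (-0.84 ± 0.21) was the one below the controls throughout, beside 2.02% of all genes. Of 11 flavonoid genes 6 fell, with a median of -0.755. UGT78D1, which attaches rhamnose to flavonols, was at 22.3, 20.2 and 23.7 FPKM in the controls and 4.98 to 14.6 FPKM (median 7.68) with bisphenols, a change of -1.27 ± 0.18 (limma adjusted p = 0.000577). UGT89C1, another flavonol rhamnosyltransferase gene, fell by 0.81 ± 0.14. The phenylpropanoid count was 12 without BPB replicate 3, 2 without control replicate 1 or replicate 3 and 0 with the libraries as 1 group, and the flavonoid count was 2 in that last setting.

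Of 25 hydrogen peroxide scavenging genes 5 rose and 6 fell, beside 13.7% and 6.93% of all genes, with a median of 0.08. CAT3, a catalase gene, was at 117, 143 and 99.8 FPKM in the controls and 150 to 317 FPKM (median 236) with bisphenols, a change of 0.91 ± 0.17, with overlap under quantile normalization. MDAR2, a monodehydroascorbate reductase gene, was below the controls throughout at 176 to 317 FPKM against 338 to 372, a fall of 0.50 ± 0.10. MDAR3 (-1.45 ± 0.45) and the chloroplast ascorbate peroxidase gene SAPX (-0.41 ± 0.11) were the other falls without overlap. Of 23 class III peroxidase genes 2 rose and 2 fell, counts near those shares, and PRX34, which makes apoplastic peroxide, was the one without overlap, at 107 to 170 FPKM in the controls and 193 to 1069 FPKM with bisphenols (1.25 ± 0.19; adjusted p = 0.000727). The peroxidase falls were 0 without control replicate 1 or 3, and both peroxidase counts were 0 with the libraries as 1 group. The scavenging counts were 2 and 1 without control replicate 1, 3 and 1 without control replicate 3, and 1 and 1 with the libraries as 1 group. Over all genes tested, 3.18% lay above the controls in all 15 libraries and 2.02% below.

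Of 17 nitrate genes 2 rose and 1 fell, beside 13.7% and 6.93% of all genes tested. The same shares stand beside each other list of this paragraph. Of all genes tested, 5.2% were without overlap, so a list this short with none is near that share. NRT1.5, which loads nitrate into the xylem, was at 45.0, 79.8 and 52.7 FPKM in the controls and 97.2 to 676 FPKM (median 203) with bisphenols, a change of 1.97 ± 0.29 (limma adjusted p = 0.000693). NRT2.1, a high-affinity uptake transporter gene, fell by 2.90 ± 0.63 with overlap, at -4.49 in BPB and -0.41 in BPS. Of 16 iron deficiency genes 5 rose and 0 fell, FIT, the uptake regulator gene, by 1.24 ± 0.18 and IREG2 by 0.79 ± 0.14, none without overlap. The nitrate falls were 3 without control replicate 2 and 0 without control replicate 3, and the list had 1 rise and 0 falls with the libraries as 1 group. Of 14 sulfur genes 2 rose and 1 fell. The sulfur rises were 1 under both other scalings and without any 1 control, the fall was lost without any 1 control, and no sulfur call was left with the libraries as 1 group. The iron count was 3 with median scaling, without control replicate 3 and without BPB, and 0 with the libraries as 1 group. Of 15 heat shock genes 1 rose and 5 fell, with a median of -0.41 and none without overlap; the 5 were 2 without any 1 control and 0 with the libraries as 1 group. Of 23 cell cycle genes 1 rose, CYCD3;1 by 0.63 ± 0.21, and 1 gene of 20 for the Casparian strip and suberin fell, FAR1 by 0.54 ± 0.18. Both of these calls were lost without any 1 of the controls, without a filter on low values and with the libraries as 1 group; CYCD3;1 was lost in 15 of the settings run and FAR1 in 18.

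**Figure D5:**
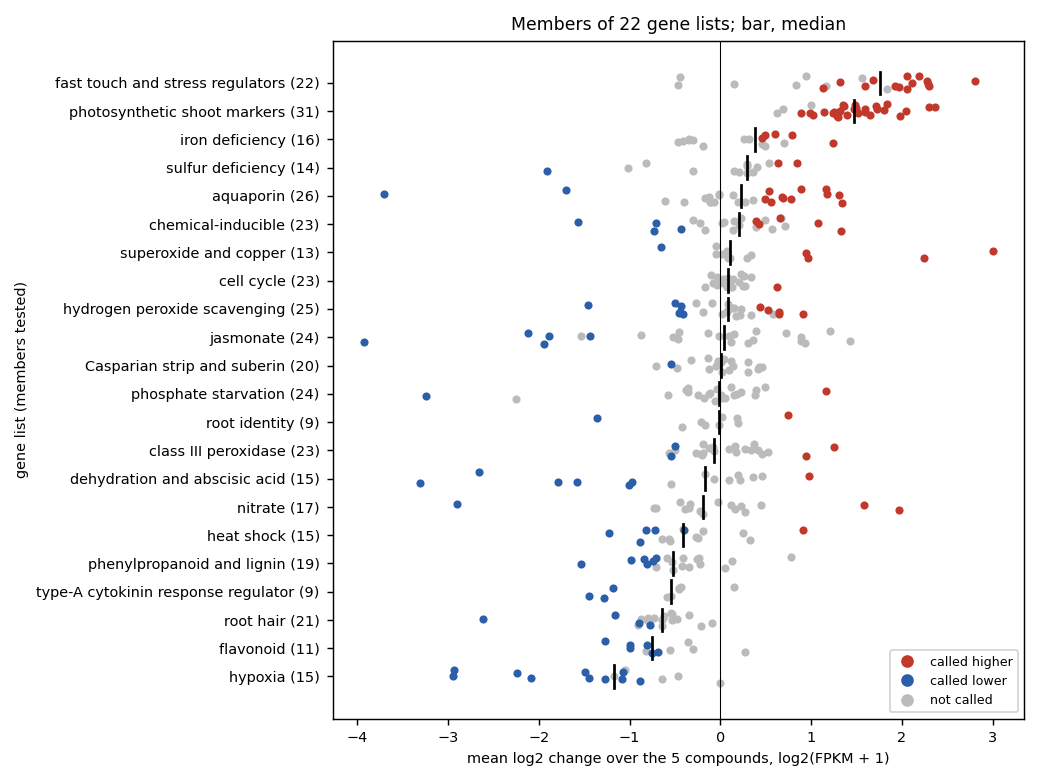
Log2 change over the 5 compounds (x axis) of every tested member of 22 gene lists (rows, with the number tested); points are genes, red if called higher, blue if called lower and grey if not called, and the bar is the list median. Photosynthetic and fast touch genes lie to the right of 0 (medians 1.47 and 1.76), hypoxia genes to the left (-1.18).

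At the edge of the no-overlap rule, ABCA2, a transporter gene, was just inside with 37.2 to 41.8 FPKM in the controls and 41.8 to 57.5 with bisphenols, and AT4G14520 with 3.82 to 4.76 against 4.76 to 14.3. PRT1, a ubiquitin ligase gene, was just inside on the lower side, at 17.37 to 24.2 against 24.2 to 30.9 FPKM in the controls, as was AT2G16760. AT3G43540 and AT1G71200 were just outside above, and mSFC1 and NSH3 just outside below. ABCA2 and AT4G14520 overlapped under both other scalings.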

How the data were processed

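Per the labels, strand-specific messenger RNA libraries of roots were sequenced, 3 per group in 6 groups. The authors deposited 1 table of FPKM per library for 33602 loci. The build was TAIR10 and the tools were edgeR, StringTie 1.3.0 and HISAT2 2.0.4, per the submitters' processing notes; the role of each tool, the annotation and counting by strand are not given in the sources used here. FPKM keep no counts, so a count model was not used. Of the loci, 32835 matched the TAIR10.1 gene table, used for names and promoters (19387 of 19484 tested genes).

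From the deposited FPKM, log2(FPKM + 1) was fitted with limma 3.58.1 (R 4.3.3, trend in the variance prior), 1 coefficient per group, for genes averaging 1 FPKM or more. P-values are two-sided and Benjamini-Hochberg adjusted over 19484 genes; the labels name no batch. The fit was tested on simulated data. Members, 22 lists (445 entries) and naming rules were chosen with earlier results of these data known, and 7 families after the values were seen. Named were, among called genes without overlap, the 10 largest rises and falls and the 5 most uniform of each, up to 2 called members of each list per direction by adjusted p, and 2 genes per direction on either side of the no-overlap rule; other members are named as examples chosen after their values were seen. Alternatives were scaling, pseudocount 0.1, no filter, no trend, the 15 libraries as 1 group, the replicate block, a log2 change of 1 added, and leaving out each library or compound.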

Additional observations from a re-analysis of the deposited data

Results flagged for a closer look

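The compounds differed from each other by limma's F test, with Benjamini-Hochberg adjustment, in 9257 of the 19484 genes tested and in 536 of the 1014 genes with all 15 bisphenol libraries on one side of the controls. Both counts were listed because groups under the same contrast differed. Since the dose of a library is not in the labels, compound and dose cannot be told apart in them.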

How the results depend on the processing

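None of the 94 genes named by rule or added for the 2 triterpene clusters changed direction under any setting run. The count of genes called in the common contrast, 4029, was 604 with the 15 libraries as 1 group (404 higher, 200 lower), 2620 without BPB (1674 higher, 946 lower) and 994 with a log2 change of 1 added (586 higher, 408 lower). Median scaling gave 2220 lower. Leaving out 1 library gave 1525 to 4935 calls, 1008 to 3167 higher and 517 to 1768 lower. Genes without overlap, 1014, were 1681 without BPE (942 above, 739 below) and 1556 without BPF (1049 above), and 682 lay below with median scaling. Leaving out 1 library gave 1016 to 2106, 621 to 1509 above and 394 to 604 below, and fewer libraries can only add to these counts. The F test count of 9257 ran from 6809 to 10274 with 1 library left out. By the median, replicate numbers did not pair the samples. Deviations correlated from -0.566 to 0.648 between libraries of the same number (median -0.00416). Between libraries of other numbers they ran from -0.745 to 0.538 (median 0.0127). A batch that does not follow the numbers was not tested. With the replicate block 3996 genes were called (2642 higher, 1354 lower) and 9101 by the F test, and 1 of 94 named genes lost its call. The 15 libraries as 1 group took the call from 60 of 94, since differences among compounds then enter the error. The pseudocount of 0.1 took it from 0, median scaling from 4, quantile normalization from 5, no filter from 5 and no trend from 2. Among the 94 was a thalianol cluster gene that was not called at the outset. Depth limits genes near 1 FPKM most.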

Other observations

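Resistance genes of the NBS-LRR class, which encode intracellular immune receptors, were taken up after their values were seen. Of 96 such loci 69 were tested, and 29 rose and 1 fell, beside 13.7% and 6.93% of all genes. The median log2 change was 0.53. ADR1, a helper receptor gene, rose by 1.03 ± 0.19 from 5.82 to 6.86 FPKM in the controls to between 8.15 and 28.0 FPKM. RPP1, a receptor gene for oomycete effectors, rose by 0.72 ± 0.16. In the family 12 genes lay above the controls in all 15 libraries, beside 3.18% of all genes, and 11 of them were called. The 29 rises were 16 with quantile normalization, 18 with median scaling, 7 without control replicate 1, 9 without control replicate 3 and 3 with the libraries as 1 group. Many of these genes have close copies, between which fragments may have been split.

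Genes of MD-2-related lipid recognition proteins gave 5 falls and 1 rise among 8, also taken up after the values were seen. Of all genes tested 6.93% fell, 13.7% rose and 2.02% lay below the controls in all 15 libraries. AT5G23830 was at 298 to 438 FPKM in the controls and 49.3 to 215 with bisphenols, a change of -1.61 ± 0.17 (limma adjusted p = 0.000174). Its neighbours AT5G23820 (-1.35 ± 0.16) and AT5G23840 (-1.96 ± 0.28), and AT1G45015 and AT2G26370, were likewise below the controls in all 15 libraries. The 5 falls were also 5 under each library left out and were 4 with the libraries as 1 group, and the rise was lost with median scaling and without any 1 control.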
